A study of Homo sapiens with 24 samples.

Results

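The response of MDAMB468 cells to lowered ADAR1 was measured by RNA sequencing in 6 of the 24 libraries of a study of triple-negative breast cancer lines, which are negative for both hormone receptors and for HER2 amplification. The 6 libraries are those whose titles name MDAMB468. In 3 of them the cells had received, by lentivirus, a hairpin aimed at ADAR1 (shADAR1), and in the other 3 a hairpin with no target (shNT). The rest of the study did the same, with 6 libraries per line, in BT549, HCC1806 and MDAMB231. All cells, controls included, were exposed to virus for 24 h and then held in puromycin at 2 µg/ml for 72 h, per the labels' protocols. Both arms therefore carry a virus and a drug selection, and no untouched cells are among the 6 libraries. Libraries came from 1 µg of total RNA after ribosomal RNA depletion. The labels call the replicates biological and do not say whether they came from separate infections, so p-values measure the spread between these samples. The hairpin's sequence and the number of hairpins are not given in the sources used here, and neither is whether the cells were a pool or a clone.

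ADAR1, encoded by ADAR, binds double-stranded RNA and converts adenosine to inosine, which is then read as guanosine. Most of its sites lie in inverted Alu repeats of introns and untranslated regions. Edited duplexes are poor ligands of the cytosolic sensors MDA5 and PKR, and loss of ADAR1 is known in some tumour lines for an interferon response and a block of translation through PKR. The series title also names MDM2, an ubiquitin ligase, lipid remodelling and ferroptosis, a form of cell death driven by iron and lipid peroxidation.

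The 6 libraries held between 24435669 and 63315021 counts. Replicate 1 was the shallowest in both arms, with 24435669 counts in shADAR1 and 24475125 in shNT. Levels are given as CPM, counts divided by library size after TMM scaling, which assumes that most genes do not change. Principal component 1 of the 6 libraries, with 39.7% of the variance, did not split the arms, and both replicate 1 libraries lay at its low end.

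Basal and epithelial markers were read to check the labelled cell type. In the shNT libraries KRT5 averaged 1203 CPM, KRT8 1434 CPM, EPCAM 253 CPM and CDH1 188 CPM. EGFR, which is amplified in this line, averaged 4911 CPM, against 368 to 650 CPM in the other 3 lines. RB1 averaged 1.18 CPM and SMAD4 2.83 CPM, while the other lines had 19.99 to 89.5 CPM and 25.3 to 55.8 CPM. Both genes are known as lost in MDA-MB-468. The progesterone receptor gene PGR was at 0 counts in all 6 libraries, and ESR1 averaged 6.84 CPM. The mesenchymal markers VIM and ZEB1 averaged 8.15 and 0.257 CPM. Among 12 markers of blood cells, MS4A1 and HBB had 0 counts in every library. The 7 blood markers that entered the tests summed to between 5.30 and 8.14 CPM per library.

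ADAR was read first, since it checks the labels. It had 122, 169 and 173 CPM in shADAR1 replicates 1, 2 and 3 and 408, 397 and 444 CPM in the shNT replicates. The arms lay far apart, and shADAR1 kept 37.1% of the control level (154.5 ± 28.0 against 416.5 ± 24.4 CPM, SD, n = 3 per arm). The log2 fold change was -1.43 (SE 0.15), with an edgeR quasi-likelihood adjusted p of 3.18e-05. Gene counts do not separate the p150 and p110 isoforms of the enzyme. In a bulk sample, fewer cells carrying a transcript and less of it per cell cannot be told apart.

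Across all genes the change was small. The edgeR quasi-likelihood fit over the 24 libraries, with 1 term for each of the 8 groups, called 8 of 21352 genes at an adjusted p under 0.05 (0.0375%). Of these, 7 fell (0.0328%) and 1 rose (0.00468%). At an unadjusted p under 0.05 there were 803 genes (3.76%). The arms did not overlap in 1428 genes that were higher in all 3 shADAR1 libraries (6.69%) and in 918 that were lower (4.3%). DESeq2 called 42 of the 12658 genes it kept (0.332%), 31 of them lower (0.245%) and 11 higher (0.0869%). The fit on the 6 MDAMB468 libraries alone called 21 of 17236 genes (0.122%), 19 of them lower (0.11%) and 2 higher (0.0116%). Its spread comes from this line, whereas the 24-library fit also uses the spread within the other lines.

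The number of calls depended on whether same-numbered replicates were treated as pairs. Same-numbered libraries of the arms deviated together from their arm means, with correlations across 13661 expressed genes of 0.372, 0.338 and 0.253. With the replicate number as a block, the same test called 354 genes (1.66%), of which 215 rose (1.01%) and 139 fell (0.651%), and all 8 calls above were among them. This is called the paired fit here. Leaving out 1 pair lowered its count to 162, 155 and 81 for pairs 1, 2 and 3. The labels do not say what a shared number stands for, and over all tested genes the third correlation was 0.0651, so the paired calls rest on that reading of the numbers.

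**Figure D1:**
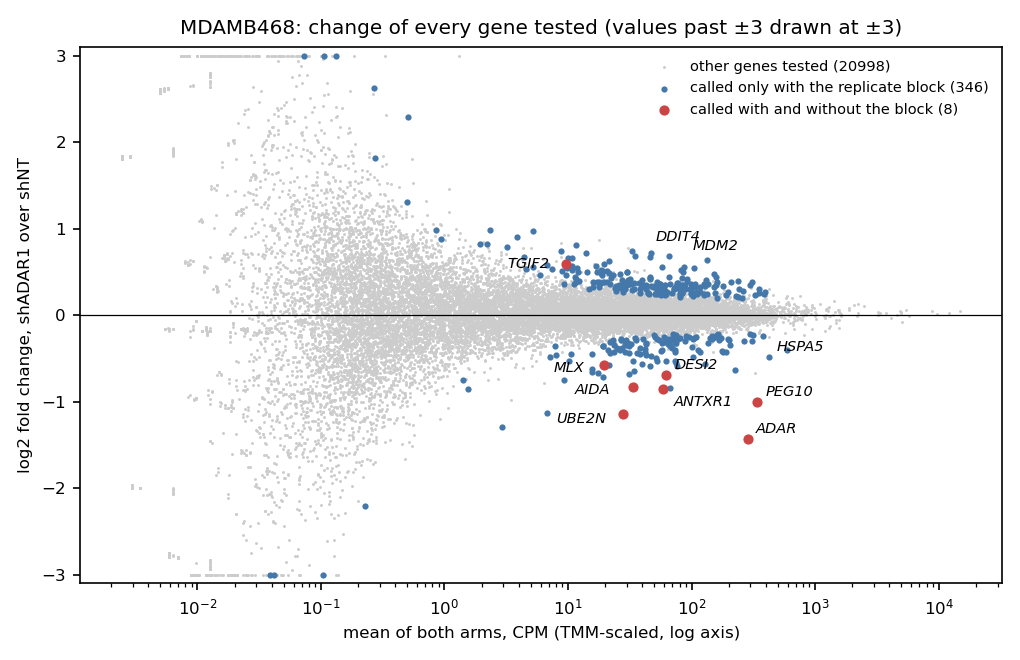
Log2 fold change of every gene tested in MDAMB468 (shADAR1 over shNT, vertical axis) against its mean level in CPM (horizontal log axis). The 8 red points were called with and without the replicate block, the 346 blue points only with it, and the 20998 grey points in neither. ADAR lies lowest among the called genes above 10 CPM.

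Besides ADAR, 6 genes fell without the block. UBE2N, the ubiquitin-conjugating enzyme that builds lysine-63 chains, had 13.6, 19.9 and 18.3 CPM in shADAR1 against 40.2, 37.9 and 37.3 CPM in shNT. Every knockdown library lay well below every control, and the mean was 45.0% of control (log2 fold change -1.15, SE 0.15, edgeR adjusted p 0.000957). PEG10, an imprinted gene derived from a retrotransposon, had 233, 220 and 228 CPM against 517, 394 and 459 CPM. Its knockdown libraries were tight while its controls spread, and the log2 fold change was -1.01 (SE 0.17, edgeR adjusted p 0.024).

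ANTXR1, a cell-surface receptor for collagen and anthrax toxin, had 35.3, 44.03 and 45.9 CPM against 77.9, 74.5 and 74.7 CPM. The arms were well apart, with a log2 fold change of -0.86 (SE 0.10, edgeR adjusted p 0.0003). AIDA, an axin-binding protein, had 22.3, 24.7 and 24.9 CPM against 44.8, 39.8 and 43.8 CPM, or 56.0% of control (edgeR adjusted p 0.0078). DESI2, a member of a family of isopeptidases, had 45.9, 47.2 and 49.6 CPM against 76.5, 75.2 and 79.4 CPM. That is 61.7% of control, with the replicates of each arm within a few CPM of each other (edgeR adjusted p 0.013).

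MLX, the partner of the glucose-sensing transcription factors MondoA and ChREBP, had 15.7, 14.7 and 16.7 CPM against 23.7, 23.1 and 23.4 CPM. Its log2 fold change was -0.58 (SE 0.10, edgeR adjusted p 0.0322). The single gene that rose was TGIF2, a homeodomain repressor of TGF-beta responses, which was not called in the fit on the 6 MDAMB468 libraries alone. It had 11.8, 11.3 and 11.5 CPM against 7.196, 8.19 and 7.57 CPM, a log2 fold change of 0.59 (SE 0.10, edgeR adjusted p 0.0257). In 6 fits that each left out 1 library, ADAR, ANTXR1 and UBE2N were called every time. AIDA, DESI2, PEG10 and TGIF2 were called in 1 of the 6, the fit without shNT replicate 2, and MLX in none. All 8 were called in the paired fits that left out pair 1, 2 or 3.

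MDM2 had 112, 95.5 and 106 CPM in shADAR1 and 69.3, 72.0 and 71.5 CPM in shNT. All 3 knockdown libraries lay above all 3 controls, at 147% of the control mean. The log2 fold change was 0.56 (SE 0.12), and it missed the threshold in the 24-library fit (edgeR adjusted p 0.132). MDM2 rose in the paired fit (adjusted p 0.000866), in the fit on the 6 libraries (0.0272) and under DESeq2 (0.0149).

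**Figure D2:**
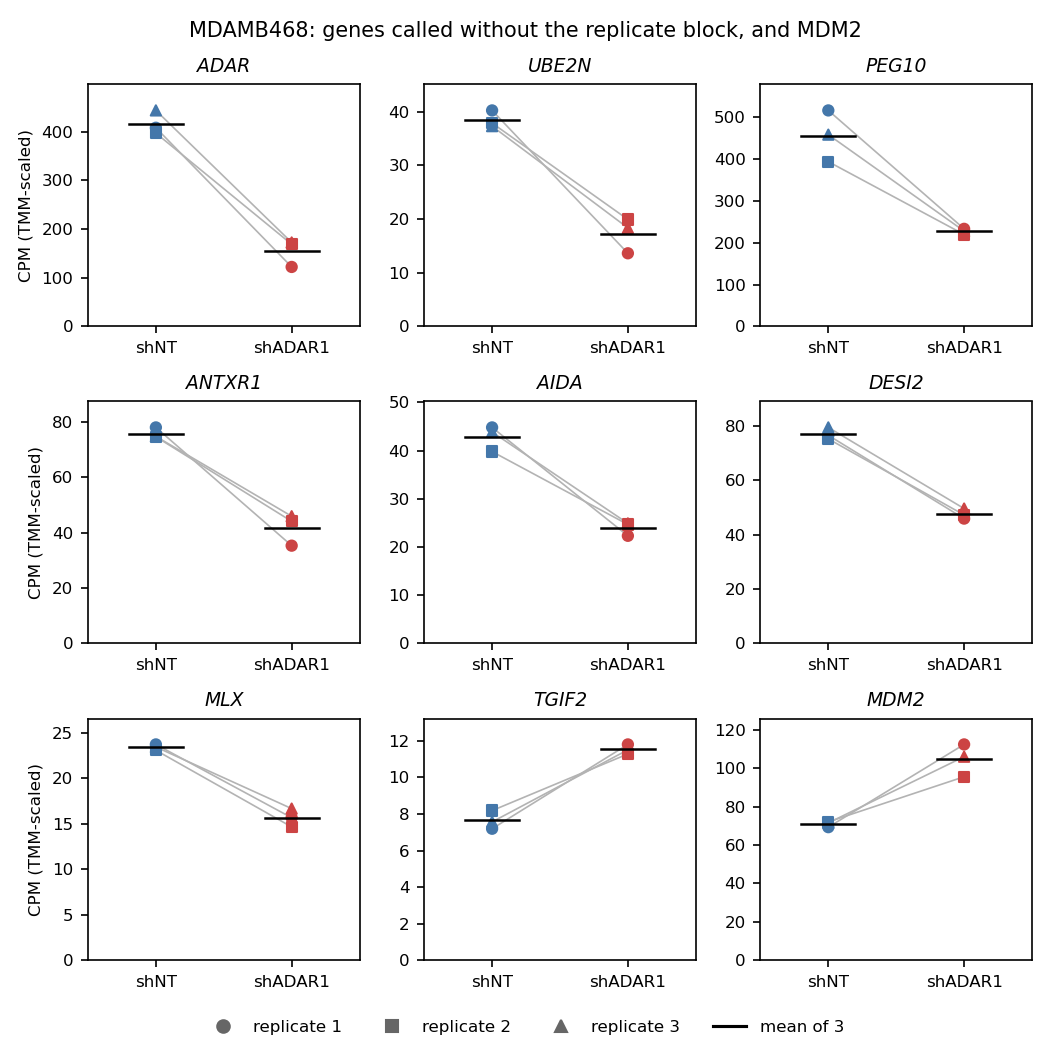
CPM of the 8 genes called without the replicate block and of MDM2 in each MDAMB468 library. Symbols mark the replicate number, grey lines join same-numbered libraries and black bars are means of 3. In all 9 panels the arms do not overlap, and ADAR falls from 416.5 to 154.5 CPM.

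The files list ADAR (ENSG00000160710) on chromosome 1, 154582062 to 154627999, minus strand, and UBE2N (ENSG00000177889) on chromosome 12, 93405673 to 93442262, minus strand. PEG10 (ENSG00000242265) lies on chromosome 7, 94656325 to 94669695, and ANTXR1 (ENSG00000169604) on chromosome 2, 69013178 to 69249327, both on the plus strand. AIDA (ENSG00000186063) and DESI2 (ENSG00000121644) are also on chromosome 1, at 222668013 to 222713210 (minus) and 244652935 to 244709033 (plus). MLX (ENSG00000108788) lies on chromosome 17, 42567068 to 42573239, TGIF2 (ENSG00000118707) on chromosome 20, 36573488 to 36593950, and MDM2 (ENSG00000135679) on chromosome 12, 68808172 to 68850686, all on the plus strand.

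The 7 genes called lower without the block share a short sequence. The 7-base word ATCTTCA, read on the sense strand, is in the 3′ UTR of all 7 genes that fell without the block and is not in that of TGIF2. It was taken up because earlier results of these data had named it. One site per gene is shown because these are the letters the falling genes have in common, with the word in capitals and 10 bases on either side. Sequences and positions are from GENCODE 29 on GRCh38, 5′ to 3′ on the transcript's strand, in the longest annotated 3′ UTR.
ADAR, chr1:154582414-154582440 (minus): gcccactgttATCTTCActttctttgt
UBE2N, chr12:93409907-93409933 (minus): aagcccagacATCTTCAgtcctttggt
AIDA, chr1:222669545-222669571 (minus): ggatgtgctcATCTTCAgacttaatac
DESI2, chr1:244706117-244706143 (plus): aaagaagaaaATCTTCAtgtcttcaaa
ANTXR1, chr2:69248038-69248064 (plus): acaaggtgatATCTTCAtagtgggcta
PEG10, chr7:94666762-94666788 (plus): tgggcatttcATCTTCAgtcccctcat
MLX, chr17:42571744-42571770 (plus): gccccattttATCTTCAgcggagccgc
ANTXR1 and MLX hold 2 copies, DESI2 3 and PEG10 4, and the PEG10 sites may lie in coding sequence, since that gene is read through a frameshift. Outside the word the 7 sites do not share a common flank.

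The word was in 2295 of 16199 tested genes with an annotated 3′ UTR (14.2%) and in 14.8% of those with a mean of at least 1 CPM. Among the genes that fell in the paired fit it was in 71 of 139 (51.1%), and among those not called without the block in 64 of 132 (48.5%). Genes that rose in the paired fit held it in 26 of 211 (12.3%), close to the share over all genes. Longer 3′ UTRs hold any word more often, so shares were also read by length. Below 1000 bases the word was in 22.2% of the falling genes and 3.53% of all expressed genes. From 1000 to 3000 bases the shares were 50.7% and 14.3%, and above 3000 bases 75.6% and 36.8%. A second word from the same earlier results, GTGGGCC, was in 10.4% of all genes, 22.3% of those that fell and 9.95% of those that rose. By the same 3 length classes, shortest first, it was in 14.8%, 17.9% and 36.6% of the falling genes and 4.58%, 11.8% and 21.4% of all expressed genes. Both words came from earlier results of these data. A higher share among the falling genes may follow from that choice and is no independent test. A match is a description of letters, and whether these sites had a part in the lower levels was not tested.

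Of the 21 genes called in the 6 libraries alone, 14 were not called in the 24-library fit. They include TAF11, a subunit of the general transcription factor TFIID, with 13.4, 14.4 and 15.5 CPM in shADAR1 against 24.96, 21.3 and 25.2 CPM in shNT (edgeR adjusted p 0.0272 in the 6 libraries). SPOPL, an adaptor of cullin-3 ubiquitin ligases, had 27.8, 24.7 and 28.1 CPM against 43.0, 40.0 and 43.6 CPM (0.00877). LITAF, a protein of late endosomes, had 46.2, 48.0 and 50.3 CPM against 96.5, 76.3 and 87.2 CPM (0.00501). These 3 genes were lower in every knockdown library, at 55.6% to 63.7% of control.

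SH3KBP1, an adaptor in the uptake of EGFR, averaged 50.95 ± 1.40 CPM in shADAR1 against 73.55 ± 3.72 CPM in shNT. SPAST, which severs microtubules, averaged 35.93 ± 1.63 against 49.57 ± 2.20 CPM. RRP1B, a nucleolar protein, averaged 152.1 ± 6.78 against 203.0 ± 8.67 CPM. Other falls were RPL7L1, SLC35A4, SYPL1, ISOC1 and CDC42SE2, at 66.6% to 74.2% of control. KIFC3, a minus-end kinesin, and MDM2 were the 2 rises. KIFC3 had 40.8, 43.2 and 43.9 CPM against 24.8, 28.5 and 26.3 CPM, with no overlap (log2 fold change 0.68, SE 0.15, adjusted p 0.139 in 24 libraries and 0.00724 in 6).

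Other genes without a call in the 24 libraries had arms that stood apart. PCBP4, an RNA-binding protein, averaged 17.32 ± 0.789 CPM in shADAR1 against 10.49 ± 1.74 CPM in shNT. KATNAL1, related to the microtubule-severing katanin, averaged 14.08 ± 1.57 against 9.651 ± 0.467 CPM, and SUN2, of the nuclear envelope, 97.76 ± 2.56 against 79.1 ± 1.49 CPM. Lower levels were found for MAPRE1, a microtubule plus-end protein (97.92 ± 1.89 against 129.5 ± 10.7 CPM), GNB5, a G-protein subunit (65.0% of control), and RAB11FIP2, a recycling-endosome protein (63.1%). These 6 were called in the paired fit, GNB5 not without pair 1 or pair 3 (adjusted p 0.0743 and 0.0837) and SUN2 not without pair 3 (0.14).

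Other lines gave a setting for these 22 genes, which were called in either fit. Each line has its own controls, so the 4 effects share no library. All 19 falling genes had a negative log2 fold change in BT549, HCC1806 and MDAMB231 as well. UBE2N changed by -1.38, -0.73 and -1.62 in those lines and ADAR by -1.94, -1.59 and -2.19. For 16 of the 19 the effect in MDAMB468 lay between those in HCC1806 and MDAMB231, a description with no test. MDM2 had 0.93, 0.38 and 0.94 in BT549, HCC1806 and MDAMB231. KIFC3 had -0.13, -0.05 and 0.17, near 0 in each. No gene's effect in MDAMB468 differed from the mean of the other 3 effects in the edgeR fit without a block (0 of 21352 genes, 669 at an unadjusted p under 0.05, and 0 with DESeq2).

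**Figure D3:**
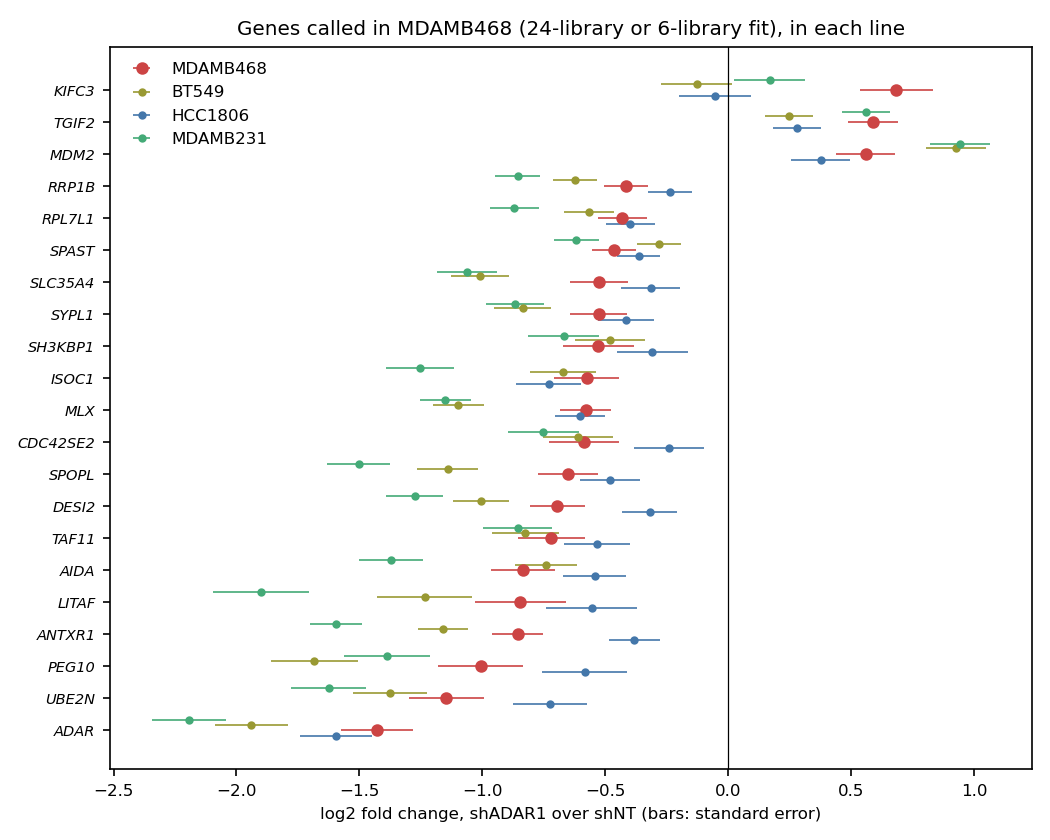
Log2 fold change of 21 of the 22 genes called in MDAMB468 in the 24-library or the 6-library fit, in each of the 4 lines, with standard errors. The genes drawn below 0 in MDAMB468 are below 0 in all lines, whereas KIFC3 at 0.68 is near 0 in the other 3.

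In the paired fit the changes were mostly modest. The 215 rises had a median log2 fold change of 0.36 and the 139 falls one of -0.37. Only 9 of the rises and 8 of the falls reached an absolute log2 fold change of 1. The arms did not overlap in 144 of the rises and 123 of the falls. Over all genes tested, 6.69% were higher and 4.3% lower without overlap. The same values chose the paired calls, so nothing is read from that excess. Of the falls, 92.1%, 97.1% and 91.4% were also negative in BT549, HCC1806 and MDAMB231, where 55.1%, 60.3% and 56.1% of expressed genes that were lower in MDAMB468 had that sign. For the rises the shares were 79.5%, 81.9% and 74.4%, against 61.4%, 60.3% and 57.7%.

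The rises of the paired fit named here were chosen after their values were seen. FN1, fibronectin, had 95.1, 72.8 and 74.6 CPM in shADAR1 against 58.4, 51.9 and 40.1 CPM in shNT. The level differed between replicates of 1 arm, and every knockdown library exceeded its same-numbered control (paired log2 fold change 0.70, SE 0.07, adjusted p 1.42e-05). Without the block the edgeR adjusted p was 1 in the 24 libraries (SE 0.44) and 0.194 in the 6 libraries alone (SE 0.15). PLEKHG4B had 41.2, 42.3 and 39.5 CPM against 23.4, 30.3 and 19.8 CPM (paired adjusted p 1.7e-05). DDIT4, an inhibitor of mTORC1 that responds to stress, had 53.2, 54.4 and 69.0 CPM against 35.4, 28.8 and 43.2 CPM (paired adjusted p 9.06e-05). All 3 genes were higher in every knockdown library than in every control.

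SESN3, a sestrin, had 83.3, 62.8 and 61.2 CPM against 53.7, 47.5 and 39.4 CPM (paired adjusted p 0.000166). IGFBP5, which binds insulin-like growth factors, had 171, 201 and 115 CPM against 98.7, 142 and 71.6 CPM. There the arms overlapped and only the pairs separated them (paired adjusted p 0.000135). Other rises were the circadian repressor NR1D1 (176% of control), the YAP target ANKRD1 (198%), the small heat shock protein CRYAB (159%) and the epithelial regulator ZNF703 (143%). For CRYAB the libraries of replicate 1 stood above the rest in both arms, at 89.4 and 58.2 CPM against at most 41.0 CPM elsewhere. ATF3 ranged from 22.1 to 185 CPM over the 6 libraries, more between replicates than between arms, and was called in the paired fit (adjusted p 0.0036) but not without pairs 2 or 3 (0.0779 and 0.0708).

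**Figure D4:**
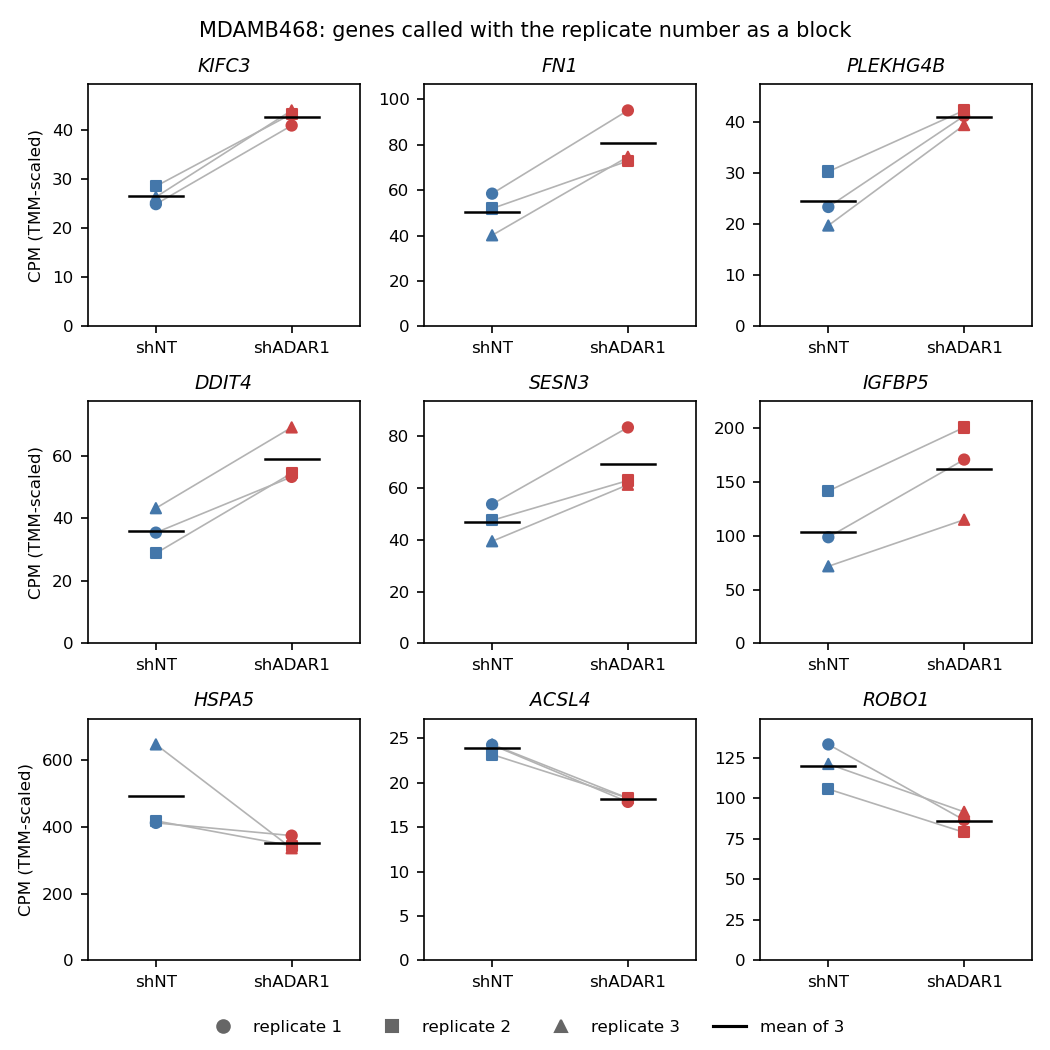
CPM of 9 genes called with the replicate number as a block, by library, with grey lines joining same-numbered libraries and black bars for means of 3. KIFC3 and PLEKHG4B separate the arms outright, IGFBP5 only within pairs, and HSPA5 is high in shNT replicate 3 at 646 CPM.

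Protein folding genes, chaperones of the cytosol and the endoplasmic reticulum, mostly had lower levels in shADAR1. Of 24 members, 22 were negative, with a median log2 fold change of -0.17, against a median of 0.01 and 52.3% positive over all genes tested. No member was called without the block. In the paired fit 3 fell, HSPA5, PDIA4 and HSPA1B, against 0.651% of all genes tested. HSPA5, the main chaperone of the endoplasmic reticulum, had 373, 343 and 336 CPM in shADAR1 against 412, 418 and 646 CPM in shNT. The shNT replicate 3 library stood apart. For PDIA4 that library was the highest control, with smaller steps between controls (239, 258 and 221 against 265, 288 and 329 CPM). Without pair 3 no member was called, the list's median was -0.08 and HSPA5 had an adjusted p of 0.143. The single-pair medians were -0.08, -0.06 and -0.35 for pairs 1, 2 and 3. HYOU1 and MANF, of the same compartment and outside the list, also fell in the paired fit, to 75.7% and 73.9% of control, and neither was called without pair 3 (adjusted p 0.274 and 0.723).

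Sensors of double-stranded RNA and their adaptors gave no call in either fit by edgeR (0 of 21 tested, and 0 at an unadjusted p under 0.05 without the block). EIF2AK2, which encodes PKR, had 205, 204 and 209 CPM in shADAR1 against 200, 216 and 250 CPM in shNT. IFIH1, which encodes MDA5, had 25.6, 21.3 and 22.5 CPM against 19.4, 19.8 and 22.5 CPM. The arms of both genes overlapped. Interferon-stimulated genes had no call without the block (0 of 45 tested, 3 at an unadjusted p under 0.05, median 0.05). In the paired fit GBP2 and SAMD9L rose, against 1.01% of all genes tested. Neither was called once any pair was left out. GBP2 had 25.95, 18.8 and 21.2 CPM against 20.9, 14.4 and 10.9 CPM, and SAMD9L stayed below 1.70 CPM in all libraries. ISG15 had 9.27, 7.91 and 8.75 CPM against 11.1, 7.34 and 7.82 CPM. IFIT1 was below 1 CPM in every library. Interferons and inflammatory cytokines gave 0 of 23.

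BBC3, the pro-apoptotic protein PUMA, rose in the paired fit to 145% of control and was not called once any pair was left out. CDKN1A, an inhibitor of cyclin-dependent kinases, had 39.7, 17.8 and 29.8 CPM in shADAR1 against 32.9, 16.5 and 27.5 CPM in shNT, overlapping. MDM4, a relative of MDM2, was higher in all 3 knockdown libraries (116, 121 and 122 against 105, 109 and 114 CPM) and was not called (paired adjusted p 0.389). The integrated stress response list had a median of 0.06 over 32 genes. DDIT4 and ATF3 were its paired rises, against 1.01% of all genes. ATF4, its central transcription factor, had 586, 663 and 686 CPM against 621, 620 and 679 CPM, and CHAC1 and ASNS also overlapped.

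Genes that protect from ferroptosis had a median of 0.02 over 31 genes, and those that promote it one of -0.00 over 30. GPX4, the peroxidase that removes lipid peroxides, had 81.3, 90.5 and 88.8 CPM against 91.5, 88.7 and 73.9 CPM. SLC7A11, the cystine transporter, had 37.0, 38.4 and 41.2 CPM against 24.9, 32.2 and 45.8 CPM. ACSL4, which loads polyunsaturated fatty acids into lipids that can be peroxidised, had 17.9, 18.3 and 18.3 CPM against 24.3, 23.2 and 24.3 CPM. ACSL4 was thus lower in every knockdown library, fell in the paired fit to 75.8% of control (adjusted p 0.0055; 0.0822 without pair 3) and had an adjusted p of 0.71 without the block. SAT1, a polyamine enzyme in the promoting list, rose in the paired fit with levels of 492, 214 and 360 against 474, 173 and 261 CPM. SAT1 was not called without pair 2 or pair 3 (adjusted p 0.244 and 0.637), and its log2 fold change was 0.17 without pair 3. MBOAT2, a lipid-remodelling acyltransferase in the defence list, rose there too (122, 98.1 and 103 against 100, 87.0 and 83.0 CPM, adjusted p 0.0258). ACSL4, SAT1 and MBOAT2 were the only paired calls of these lists, against 1.66% of all genes.

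The 58 lipid remodelling genes tested had a median of 0.01. MBOAT2 and ACSL4 were their only paired calls, against 1.66% of all genes. FADS1, PLIN2 and SCD overlapped between arms, with SCD at 457, 638 and 627 against 443, 576 and 600 CPM. PPARA had 78.9, 69.9 and 78.4 CPM against 78.2, 76.3 and 87.4 CPM. Sterol synthesis genes had a median of -0.01 over 27 genes. The regulator SREBF1 was the only one called and rose in the paired fit, against 1.01% of all genes. It had 140, 153 and 163 against 120, 121 and 114 CPM (paired edgeR adjusted p 0.00363, and 0.141 without pair 3).

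EGFR itself had 5022, 4690 and 5249 CPM against 4932, 4657 and 5142 CPM, with overlap. Of 27 genes of its family, ligands and feedback, 0 were called without the block (1 at an unadjusted p under 0.05, and 0 with DESeq2), and the median log2 fold change was 0.00. In the paired fit 5 were called, against 1.66% of all genes: ERRFI1 and ERBB2 rose and TGFA, ETV5 and SPRY4 fell. ERRFI1, which inhibits EGFR, had 91.3, 71.7 and 93.9 CPM against 69.3, 56.0 and 72.4 CPM (paired adjusted p 0.000583, called in all 3 fits without a pair). TGFA, a ligand of EGFR, was called in none of those 3 fits (adjusted p 0.107, 0.189 and 0.357 without pair 1, 2 or 3). ERBB2, a receptor, and SPRY4 and ETV5, feedback and target genes of the ERK pathway, were called only without pair 2. Their adjusted p was 0.0658, 0.143 and 0.122 without pair 1 and 0.347, 0.561 and 0.256 without pair 3. Of 28 genes in the TGF-beta list 2 were called in the paired fit, against 1.66% of all genes. TGIF2 was called with and without the block in the 24 libraries, but not in the unblocked fit on the 6 libraries. TGFB2, a ligand, was called only with the block (231, 180 and 194 against 160, 147 and 172 CPM). Its paired edgeR adjusted p was 0.211 without pair 1 and 0.0532 without pair 2.

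Cell-cycle genes differed little. Log2 fold changes of G2/M genes were positive in 29 of 30, with a median of 0.11, 0 edgeR calls in either fit and 0 at an unadjusted p under 0.05 without the block. The single-pair medians were 0.03, 0.05 and 0.22. Among 33 G1/S genes CDC25A and CDC6 fell in the paired fit, against 0.651% of all genes. CDC25A went from 39.0, 34.9 and 44.1 to 25.8, 31.1 and 25.05 CPM. CDC25A was not called without pair 3 (adjusted p 0.184), and CDC6 was not called once any pair was left out. Among 15 genes of the MLX network MXD3 rose in the paired fit while MLX fell, against 1.01% and 0.651% of all genes. MXD3 was not called without pair 2 or pair 3 (adjusted p 0.0923 and 0.327). UBE2N was the only call in either edgeR fit among 19 genes of lysine-63 ubiquitin signalling, against 1.66% of all genes in the paired one. Among 21 transcripts known to be edited by ADARs, MDM2 rose and BLCAP fell in the paired fit, against 1.01% and 0.651% of all genes. BLCAP, TAPBP and MBOAT2 were not called once any pair was left out. Among 35 hypoxia and glycolysis genes 1 was called in the paired fit, near the 1.66% over all genes. It was PGK1, at 81.4% of control, and it was not called without pair 1 or pair 3 (adjusted p 0.0959 and 0.0867). Of 19 genes of antigen presentation through MHC class I only TAPBP was called (116% of control, paired), against 1.66% of all genes. Of 15 genes of the mitochondrial genome, 60 of cytosolic ribosomal proteins and 16 of the microRNA machinery, 0 were called in either edgeR fit or with DESeq2, and 0 had an unadjusted p under 0.05 in the edgeR fit without the block. At 1.66% over all genes, lists of this size hold few calls or none, so nothing is read from these counts. Of 18 snoRNA host genes 5 could be matched.

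**Figure D5:**
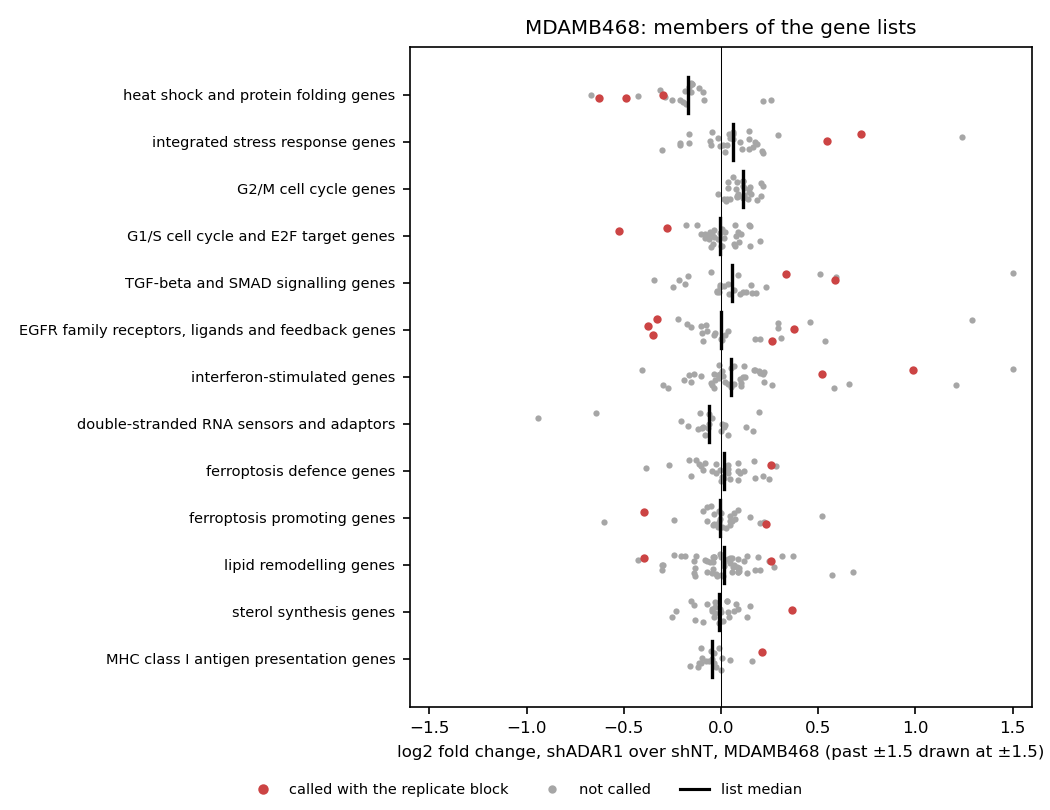
Log2 fold changes in MDAMB468 of the tested members of 13 gene lists, with list medians as black bars and members called in the paired fit in red. Protein folding genes lie lowest with a median of -0.17, G2/M genes lie together at 0.11, and the other medians are close to 0.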

How the data were processed

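The members were the 6 libraries with MDAMB468 in the title. The members, the 27 gene lists, the 7 marker lists, the 2 sequence words and the rules for naming genes were chosen with earlier results of these data known. Whole-number read counts per gene, for 37416 genes, were deposited by the authors. The deposited CPM values, per the file headers, are counts scaled to the library total, and the deposited RPKM values divide CPM by gene length in kilobases. Only the counts were tested, and values of some genes are not reported here. Per the submitters' processing notes the tools were bcl2fastq, STAR, Subread, featureCounts and edgeR, with no role stated. The genome build, the annotation and the use of strand are not given in the sources used here, so genes with near-identical copies or overlapping antisense genes are uncertain. Of the files' genes, 34265 were in GENCODE 29 on GRCh38 and 31357 had the same start and end. Symbols came from a name table for 33972 genes.

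Total counts per MDAMB468 library ran from 24435669 to 63315021. Within an arm, replicates exceeded sampling noise, with a chi-square of 12.6 to 24.1 per degree of freedom. Genes passed filterByExpr over the 8 groups and were tested with edgeR 4.0.16 in R 4.3.3 (TMM, quasi-likelihood F test, 2-sided, Benjamini-Hochberg adjustment over 21352 genes, threshold 0.05) on all 24 libraries, with 16 residual degrees of freedom. The procedure was tested on simulated data. The simulation gave same-numbered libraries a shared deviation, so it cannot say whether the numbers mark pairs in these libraries. Standard errors are the fold change over the square root of F.

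Same-numbered MDAMB468 libraries were checked for pairing by correlating deviations from the arm means. The block also paired the other lines by number, and pairing was not checked there. Over 13661 genes with a mean of at least 1 CPM the correlations were 0.372, 0.338 and 0.253, and each library correlated best with its own number. Over all 21352 genes they were 0.165, 0.166 and 0.0651. The first set was used and the numbers were read as pairs, before the calls of the fits were compared. By the second set they would not have been, since 1 correlation is under 0.1, and why the sets differ was not tested. Alternatives were other scalings, DESeq2 1.42.0, other filters, the 6 libraries alone, the replicate block, removal of mitochondrial and structural RNA genes, and leaving out each library. Leaving out a pair was added after seeing the data. Genes were named as follows: ADAR and MDM2, all calls in the 24-library fit, calls in the 6 libraries, the leading genes with arms apart, and 2 members per list. Genes named from the paired fit, and other list members, fall outside that rule: their values were seen before they were chosen.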

Additional observations from a re-analysis of the deposited data

Results flagged for a closer look

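In the paired fit, 82 of 21352 genes (0.384%) had an effect in MDAMB468 that differed from the mean effect of BT549, HCC1806 and MDAMB231 (edgeR, adjusted p under 0.05), with 61 higher and 21 lower. Without the block there were 0. Leaving out pair 1, 2 or 3 of MDAMB468 gave 41, 26 and 3. The paired fit also reads same-numbered libraries of the other lines as pairs, and that reading was not checked in those lines.

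The 8 genes with the smallest p in that test were chosen after their values were seen. KIFC3 differed by 0.69 on the log2 scale (paired adjusted p 0.000259) and PLEKHG4B, whose effects in the other lines were -0.14, -0.06 and -0.16, by 0.88 (paired adjusted p 0.000741). FN1 differed by 0.62 and SESN3 by 0.64. SOCS3, a cytokine feedback inhibitor, differed by 0.61, with 12.6, 12.0 and 10.1 CPM in MDAMB468 shADAR1 against 7.95, 8.79 and 6.97 CPM in shNT. PIK3R1, the p85 subunit of PI3-kinase, differed by 0.56, with 0.32 in MDAMB468 and -0.35, 0.01 and -0.39 in BT549, HCC1806 and MDAMB231. SPNS2, an exporter of sphingosine-1-phosphate, differed by 0.57, with -0.11, -0.08 and -0.79 in those lines. Its own effect in MDAMB468 was 0.25 and was not called (paired adjusted p 0.0821). MICB, a stress ligand of natural killer cells, differed by -0.73, with a log2 fold change of -0.19 in MDAMB468, 0.79 in BT549, -0.12 in HCC1806 and 0.96 in MDAMB231.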

How the results depend on the processing

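The 8 calls without a block became 42 with DESeq2, 21 in the 6 libraries alone, 354 with the replicate block and 326 with the replicate block in the 6 libraries. Leaving out 1 library gave 3 to 10 calls: 3 on dropping any shADAR1 library or shNT replicate 1, and 4 and 10 on dropping shNT replicates 3 and 2. Leaving out replicate 1 of both arms gave 2, and the replicate block without pair 1, 2 or 3 gave 162, 155 and 81. Other scalings and filters gave 9 to 12. Genes differing from the other lines rose from 0 to 82 with the replicate block. The share of lower calls was 87.5% without the block and 39.3% with it. ADAR stayed called under every setting tried.

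MDM2 was 0.56 without a call and passed at 0.56 with DESeq2, 0.55 in the 6 libraries, 0.55 with the replicate block and 0.54 with the block in the 6 libraries, and at 0.49, 0.63 and 0.54 with the block without pair 1, 2 or 3. Signs turned for uncalled genes. Leaving out 1 library, CXCL8 ran from -0.755 to 0.139, MT-ND4L from -0.183 to 0.041 (0.027 without shNT replicate 2), RELB from -0.368 to 0.023 and MT-RNR2 from -2.199 to 1.463. With the block, MT-RNR2 was -0.091, and -0.178 in the 6 libraries. With the block without pair 3, CXCL8 was 0.151, MT-RNR2 -0.205 and RPS23 -0.003. MT-ND4L was 0.147 with the block without pair 2, and MT-RNR2 -1.767 without pair 1 and -2.119 without replicate 1 of both arms unblocked. The cause was not tested. Replicate 1 had the lowest depth, at 24435669 and 24475125 counts, and how small a change could be detected at that depth was not tested.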

Other observations

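Further genes of the paired fit, chosen after their values were seen, belong to no list above. LOXL2, an extracellular lysyl oxidase, had 28.7, 34.6 and 32.3 CPM in shADAR1 against 51.7, 43.2 and 46.9 CPM in shNT (paired adjusted p 0.00259, called in all 3 fits without a pair). LOX was also lower in the paired fit (5.56, 7.96 and 6.67 against 7.31, 9.31 and 11.2 CPM, paired adjusted p 0.00495). Without pair 3 LOX was not called (adjusted p 0.256) and its log2 fold change was -0.29. ROBO1, a guidance receptor, had 86.7, 79.1 and 91.7 CPM against 133, 106 and 121 CPM (paired adjusted p 0.000386). B4GALT6, a lactosylceramide synthase, was at 40.4% of control, with 1.21, 2.32 and 1.47 CPM against 2.88, 4.52 and 4.99 CPM (paired adjusted p 0.00312; 0.146 without pair 3).

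Several rises were transcription factors or surface proteins whose level varied more between replicates than between arms. KLF6 had 474, 217 and 317 CPM against 391, 157 and 240 CPM, and PRDM1 had 38.6, 17.7 and 22.5 CPM against 26.9, 10.5 and 13.6 CPM. CD59, an inhibitor of complement, had 399, 299.6 and 359 CPM against 328, 233 and 248 CPM. In all 3 genes replicate 1 was highest in both arms. ARID5B rose from 138, 138 and 103 to 192, 167 and 169 CPM (paired adjusted p 0.000337). HSD17B10, a mitochondrial dehydrogenase, had 47.6, 55.4 and 55.1 CPM against 33.8, 42.4 and 40.2 CPM and was called in the paired fit (adjusted p 0.0221), but in none of the 3 fits without a pair.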
